A study of Mus musculus with 2 samples.

Results

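The circadian clock and its output were followed through 10 genes, *Dbp*, *Tef*, *Hlf*, *Nr1d1*, *Nr1d2*, *Per1*, *Per2*, *Per3*, *Ciart* and *Arntl*, chosen by name from the 20198 genes counted in single cells of mouse cornea. All 10 were found in the table by symbol. The UW library held dissociated corneas of 4 unwounded mice, labelled normal, and the W library those of 4 mice taken 24 h after the central corneal epithelium was scraped off under anaesthesia. The study used male mice aged 6 to 8 weeks whose strain its methods do not name, and no transgene or deletion is named for either group. Corneas of both groups spent 18 h in dispase II at 4 °C, after which the epithelium was treated with trypsin and the rest with collagenase A for 1 h at 37 °C. Each library pooled its animals. The study's methods name Souporcell, which tells pooled animals apart by genotype, but no column of the table of cells used here gives the mouse, so the values are those of 1 library per condition, with no replicate and no test. The hour of the day at which mice were wounded or killed is not given in the sources used here. Wound, hour of the day and library therefore cannot be told apart in any difference between UW and W.

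Single-cell RNA-seq on the 10x Genomics platform counts unique molecular identifiers (UMIs), 1 per captured RNA molecule. Levels are given as summed UMIs of a gene per 1000000 UMIs (CPM) in the cells of a deposited cluster and library. The UW library held 16450 cells and 367166822 UMIs, and the W library 12417 cells and 289586482 UMIs. In 12 of the deposited clusters there were at least 50 cells from each library, and 10 of them (1 to 9 and 11) are taken as epithelial, with 332977270 UMIs in UW and 239014699 in W. The 7 epithelial markers, *Krt12* among them, summed to 47440 CPM in the epithelial cells of UW and 42256 CPM in those of W. Cluster 0 was stromal, led by *Kera*, with 74554 and 38724 CPM of the 6 stromal markers. Cluster 10 was led by *Penk* and *Myoc* and carried both stromal and endothelial markers, so it is called by its number.

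In the mammalian clock, BMAL1 (the product of *Arntl*) and CLOCK bind E-box sequences and activate the *Per* and *Cry* genes, whose proteins in turn repress them. The nuclear receptors REV-ERBα and REV-ERBβ (*Nr1d1* and *Nr1d2*) repress *Arntl* through RORE sequences, in competition with the ROR activators. DBP, TEF and HLF are related transcription factors of the PAR bZIP family that bind D-box sequences and carry the rhythm to output genes, and *Ciart* encodes CHRONO, a repressor of BMAL1 and CLOCK. The corneal epithelium is long known for a daily rhythm of cell division.

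The promoters of 9 of the 10 genes, *Per2* being the gene left over, were matched by symbol to 12 RefSeq windows (GRCm38.p6) of 250 bases before and 50 bases after a transcription start. Both strands were searched for the E-box CACGTG, the D-box TTANGNAA, the RORE TAGGTCA or TGGGTCA and the cyclic AMP response element (CRE) TGACGTCA, and no 2 of the motifs found overlapped. Windows of 6 genes held at least 1 of them. Among all 32851 windows, 7.15% held the E-box, 11.5% the D-box, 6.45% the RORE and 1.79% the CRE. Stretches of 4 genes are shown, with motifs in capitals, because they hold the motifs through which the clock proteins act, *Ciart* the E-box alone, *Per3* the D-box alone, *Per1* both and *Arntl* the RORE. The stretches are *Ciart* at chr3:95882257-95882354 on the minus strand, *Per3* at chr4:151044806-151044880 on the minus strand, *Per1* at chr11:69098773-69098942 on the plus strand and *Arntl* at chr7:113207531-113207557 on the plus strand, each written from 5′ to 3′ along its gene.
Ciart: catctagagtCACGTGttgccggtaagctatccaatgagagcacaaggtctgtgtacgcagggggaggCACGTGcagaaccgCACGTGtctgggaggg
Per3: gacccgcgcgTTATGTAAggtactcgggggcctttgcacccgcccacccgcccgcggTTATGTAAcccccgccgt
Per1: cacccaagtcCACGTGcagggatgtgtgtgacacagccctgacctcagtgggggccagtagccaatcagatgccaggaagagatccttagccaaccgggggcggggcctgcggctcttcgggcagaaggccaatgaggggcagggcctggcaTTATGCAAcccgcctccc
Arntl: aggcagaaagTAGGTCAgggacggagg

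*Ciart* carried 3 E-boxes, which began 116, 58 and 44 bases before the start. *Per3* carried the D-box TTATGTAA at 205 and 158 bases before it. *Per1* held 1 E-box at 166 bases and 1 D-box at 24 bases before the start. The RORE of *Arntl* lay within the transcribed part, beginning at position 31 counted from the start as position 1. A D-box (TTAGGGAA) began at position 14, with only its last base, in lower case, inside the stretch shown. Windows of *Tef* held an E-box at 127 and at 138 bases before their starts, and that of *Hlf* a CRE at 9 bases. No searched motif was found in the windows of *Dbp*, *Nr1d1* and *Nr1d2*, which says only that these letters are not in those bases.

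In the annotation (GENCODE M21, GRCm38), *Dbp* lies on chromosome 7 from 45705088 to 45710203 and shares 737 bases with *Sphk2* on the other strand. *Nr1d1* lies on chromosome 11 from 98767932 to 98775333 and shares 1075 bases with *Thra* on the other strand. How the counting treated strand is not given in the sources used here, so these counts carry that uncertainty. *Per3*, on chromosome 4 from 151003652 to 151044665, lies wholly inside the annotated span of *Camta1* on the same strand and its counts are uncertain for that reason. *Ciart* (chromosome 3, 95878503 to 95882251) lies wholly inside the antisense transcript *C920021L13Rik*. *Tef* (chromosome 15, 81802421 to 81826863) shares 193 bases with the antisense *Gm17597*, and *Arntl* (chromosome 7, 113207465 to 113314126) shares 2394 bases with the antisense *Gm45355*. *Hlf* (chromosome 11, 90336536 to 90390895), *Per1* (chromosome 11, 69095217 to 69109960), *Nr1d2* (chromosome 14, 18204054 to 18239127) and *Per2* (chromosome 1, 91415982 to 91459324) overlap no other gene of that annotation.

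The first comparison was that of unwounded with wounded epithelium. The D-box factors and several repressors were lower in W, and *Arntl*, the activator, was the member furthest in the other direction. *Hlf* stood at 244 CPM in UW and 74.9 CPM in W, a log2 ratio of -1.70 (95% interval -1.73 to -1.68). *Dbp* stood at 100.4 and 39.3 CPM (log2 ratio -1.35, interval -1.39 to -1.32). *Tef* stood at 46.7 and 19.5 CPM (log2 ratio -1.26). All 3 PAR bZIP factors were thus at least 2-fold lower in W epithelium, beside 8.77% of all genes tested there. The intervals here and throughout come from the exact split of the counts and cover counting error only, not the differences between animals.

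Among the repressors, *Ciart* had the lowest ratio of the 10 genes, with 23.5 CPM in UW and 6.59 CPM in W (log2 ratio -1.84, interval -1.91 to -1.76). *Per3* stood at 46.4 and 19.8 CPM (log2 ratio -1.23), but among cells with 10000 to 30000 UMIs its log2 ratio was -0.99, short of 2-fold. *Nr1d1* stood at 290.2 and 147 CPM (log2 ratio -0.98), just short of 2-fold. *Per2* stood at 11.9 and 7.97 CPM (log2 ratio -0.57), and *Nr1d2* at 44.1 and 32.7 CPM (log2 ratio -0.43). *Per1*, a period gene also known to answer to stress and hormonal signals directly, stood at 39.5 and 40.6 CPM (log2 ratio 0.04), and its sign turned under other scalings. *Arntl* stood at 4.96 CPM in UW and 8.92 CPM in W (log2 ratio 0.85, interval 0.75 to 0.94).

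Thus 5 of the 10 genes were at least 2-fold lower in W epithelium and 0 at least 2-fold higher. Of the 16439 genes with at least 20 counts, 8.77% were at least 2-fold lower and 21.8% at least 2-fold higher. The median log2 ratio was -1.11 over the 10 genes and 0.22 over all genes tested. Since the median of all genes was not at 0, scaling by TMM factors would lower every epithelial log2 ratio by 0.22 and raise those of cluster 0 by 0.14 and of cluster 10 by 0.11. With TMM factors 6 of the 10 genes were past 2-fold, a setting for which the share of all genes was not computed. With cells thinned to 5000 UMIs *Arntl* had a log2 ratio of 1.03.

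**Figure D1:**
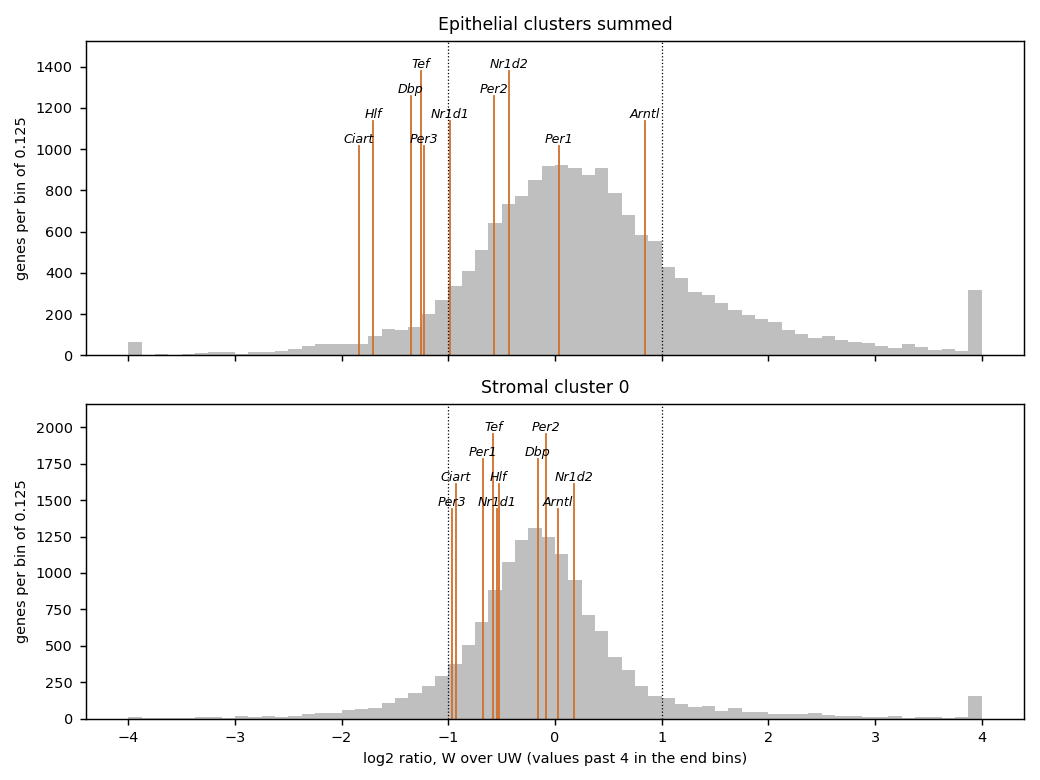
Number of genes (vertical axis) by log2 ratio of W over UW (horizontal axis, equal bins) among genes with at least 20 counts, in the summed epithelial clusters and in stromal cluster 0, with the 10 clock genes as orange lines and 2-fold as dotted lines. In the epithelium 5 genes lie left of the lower 2-fold line, from *Ciart* at -1.84 to *Per3* at -1.23, and in cluster 0 none does.

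The summed epithelium mixes layers whose shares differ between the libraries, so each cluster was compared with itself. Of the 100 pairs of a gene and an epithelial cluster, 54 were at least 2-fold lower in W and 2 at least 2-fold higher. Over the 12 clusters, 9.81% of all 150063 tested pairs of a gene and a cluster were lower by that much and 12.7% higher. The shares differed along the layers. In cluster 9, 9 of the 10 genes were at least 2-fold lower in W, all but *Arntl*, where 9.76% of genes were lower by that much and 9.12% higher. In cycling cluster 8 it was 7 of 10 (9.58% of genes lower and 10.9% higher) and in cluster 11 also 7 of 10 (9.33% and 12.7%), *Per1*, *Per2* and *Arntl* being the genes that were not. In basal cluster 3 it was 6 of 10 (11.1% and 15.1%). Clusters 1 (11% and 14.7%), 2 (13.1% and 13.2%), 4 (13.5% and 13.8%) and 5 (7.47% and 12.7%) each had 5 of 10. In the superficial clusters the number was 3 of 10 in cluster 6 (9.58% and 17.2%) and 2 of 10 in cluster 7 (6.48% and 23.2%), where the 2 were *Hlf* and *Per3*. The genes that were at least 2-fold lower were thus most in the limbal, cycling and basal clusters and fewest in the superficial ones.

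*Hlf* was at least 2-fold lower in 10 of 10 epithelial clusters, with log2 ratios from -3.13 in cluster 1 to -1.13 in cluster 7. *Tef* and *Per3* were in 9 of 10 each, *Dbp* in 8, *Ciart* in 7 and *Nr1d1* in 5. *Nr1d2* was in 3, *Per2* in 2 and *Per1* in 1.

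*Arntl* was the gene above 0 in every epithelial cluster, with a median log2 ratio of 0.73 over the 10 clusters. Its intervals lay above 0 in 9 of them, cluster 7 being the exception. It was past 2-fold in cluster 5, which carries the conjunctival markers *Krt4* and *Krt19* (1.52 CPM in UW and 6.22 CPM in W, log2 ratio 2.03), and in superficial cluster 6 (3.101 and 7.05 CPM, log2 ratio 1.19). The value in cluster 5 rests on 41 counts in UW and 225 in W. *Per2* ranged from -1.72 in cluster 9 to -0.28 in cluster 1, and lay below 0 in all 10 epithelial clusters.

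**Figure D2:**
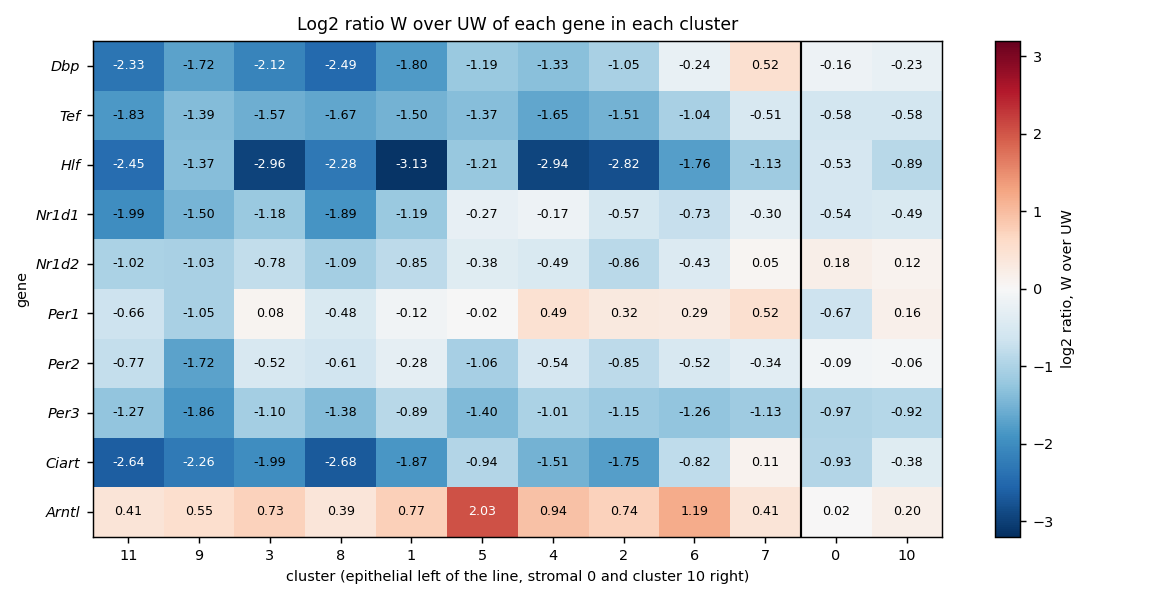
Log2 ratio of W over UW (colour and printed value) for each of the 10 genes (rows) in each of 12 clusters (columns, epithelial clusters ordered by their level of basal markers in UW). Blue fills most epithelial cells of the grid apart from *Per1* and *Arntl*, and the 2 columns right of the line, clusters 0 and 10, hold no value past 2-fold.

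*Dbp*, *Tef*, *Hlf* and *Nr1d2* followed the layers of the epithelium in the unwounded cornea. *Dbp* stood at 231 CPM in cluster 9, which carries the limbal marker *Wfdc18*, at 204 CPM in cycling cluster 8, at 183 CPM in cluster 11, which is led by DNA replication genes, and at 179 CPM in basal cluster 3. The intervals of the last pair overlapped. It then declined through cluster 1 (132 CPM), cluster 4 (99.4 CPM), cluster 2 (80.5 CPM), cluster 5 (71.8 CPM) and superficial cluster 6 (42.4 CPM) to cluster 7, the most superficial by its *Lce3a*, at 13.3 CPM. Each of these steps was larger than the counting intervals.

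In the W library the slope of *Dbp* was much flatter. *Dbp* stood at 69.8 CPM in cluster 9, between 31.4 and 41.2 CPM in clusters 1 to 6, 8 and 11, and at 19.1 CPM in cluster 7, and the intervals of most neighbours in that order overlapped. The highest epithelial level was 17.4-fold the lowest in UW and 3.66-fold in W. Cluster 7 was the epithelial cluster in which *Dbp* was higher in W, with a log2 ratio of 0.52 (interval 0.29 to 0.75), while *Ciart* (0.11) and *Nr1d2* (0.05) were near level there. *Hlf* kept a slope in W, its highest epithelial level being 38.0-fold the lowest in UW (cluster 3 over cluster 7) and 25.4-fold in W (cluster 9 over cluster 7). From cluster 3 to cluster 7 alone its slope was flatter in W, at 10.7-fold.

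*Nr1d1* showed no such slope. In UW it was highest in superficial cluster 6 at 387 CPM, where its interval overlapped that of cluster 8 (379 CPM), and lowest in cluster 5 at 160.4 CPM. In W its highest level was again in cluster 6 (234 CPM), where its interval overlapped that of cluster 4 (228 CPM). Its lowest epithelial level in W was in cluster 11 (92.1 CPM). The log2 ratio was -1.99 in cluster 11 and -1.89 in cluster 8, against -0.17 in cluster 4, -0.27 in cluster 5 and -0.30 in cluster 7. Across the 10 epithelial clusters, the log2 level of *Nr1d1* had a Pearson r of 0.30 with that of the summed basal markers in UW and of -0.75 in W. The same r for *Dbp* was 0.92 in UW and 0.63 in W, whereas *Tef* (0.90 and 0.91), *Hlf* (0.94 and 0.93) and *Nr1d2* (0.90 and 0.88) kept theirs. It was also lower in W for *Per1* (0.82 and 0.28), *Ciart* (0.65 and -0.03) and *Per3* (0.57 and 0.43). For *Per2* (0.53 and 0.55) and *Arntl* (0.65 and 0.72) it was not. These r describe 10 sums that share a library, and they are not tests.

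*Per1* and *Per2* differed from each other by layer as well. The ratio of *Per1* went from -1.05 in cluster 9 and -0.66 in cluster 11 to 0.49 in cluster 4 and 0.52 in cluster 7. Its intervals lay below 0 in 3 epithelial clusters and above 0 in 4, so its near-level sum combines clusters that differed in opposite directions. *Per2* had its highest epithelial level in UW in cluster 9 (31.1 CPM), which stood at 9.44 CPM in W.

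**Figure D3:**
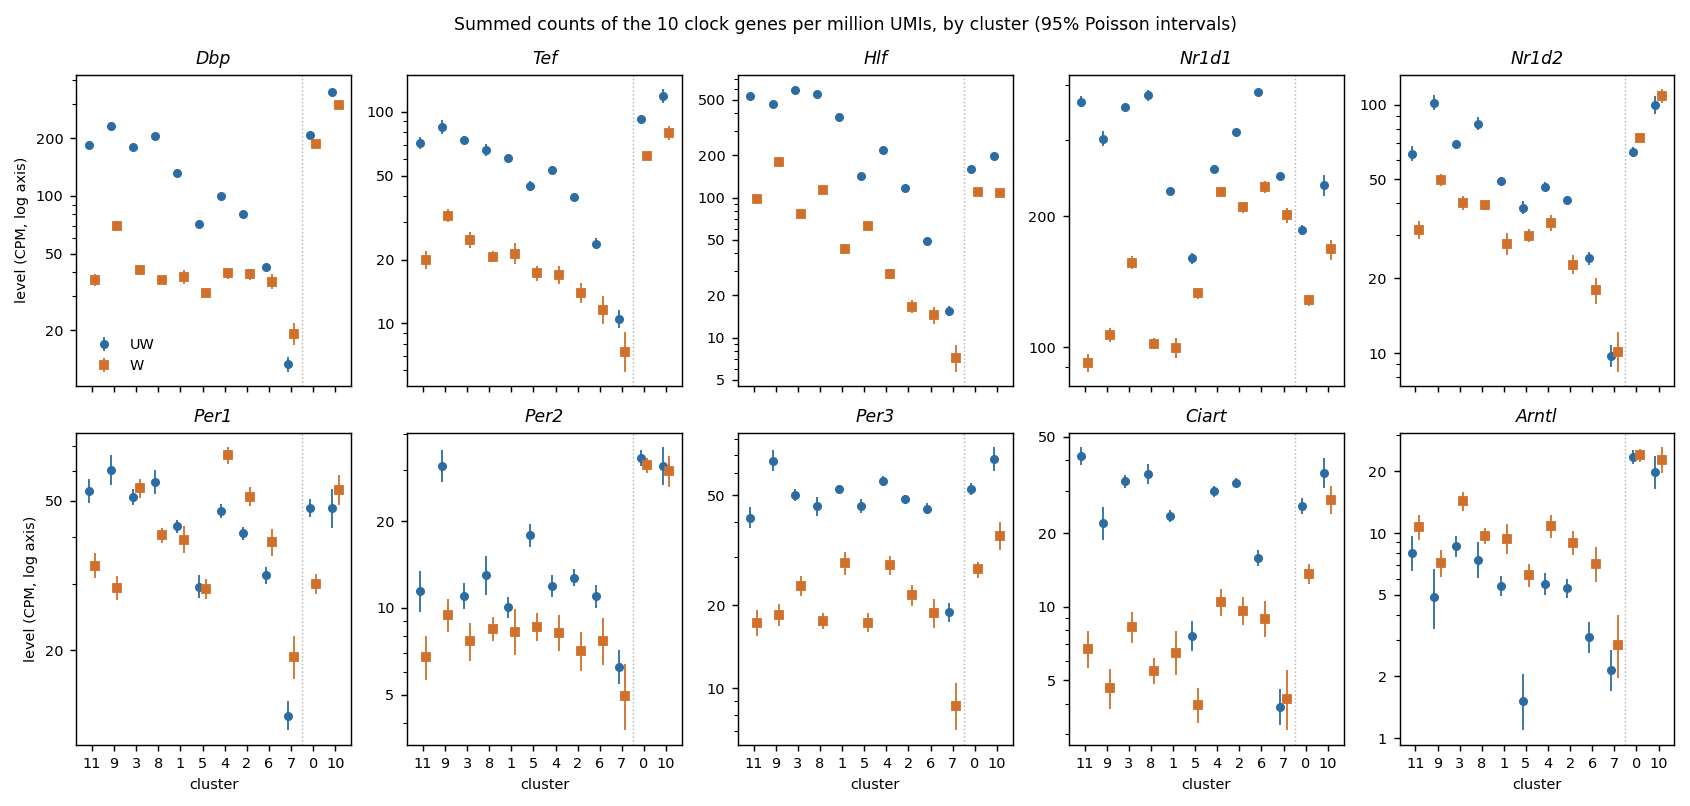
Level of each gene in CPM (vertical log axis) in 12 clusters (horizontal axis, epithelial clusters by falling basal marker level in UW, then clusters 0 and 10), for UW (blue circles) and W (orange squares), with exact Poisson 95% intervals. The slope of *Dbp* from 231 to 13.3 CPM in UW is much flatter in W, *Nr1d1* lacks it, and in clusters 0 and 10 the libraries lie closer together.

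Stromal cells, which lie beneath the scraped epithelium, were compared in the same way. In cluster 0 none of the 10 genes was past 2-fold, where 9.67% of 14245 genes were at least 2-fold lower in W and 7.34% at least 2-fold higher. *Dbp* stood at 207 CPM in UW and 185 CPM in W (log2 ratio -0.16, interval -0.21 to -0.11). *Hlf* stood at 159 and 111 CPM (log2 ratio -0.53), and *Nr1d1* at 186 and 128 CPM (log2 ratio -0.54). The lowest ratios were those of *Per3* (52.7 and 26.9 CPM, log2 ratio -0.97) and *Ciart* (25.9 and 13.6 CPM, log2 ratio -0.93). *Arntl* stood at 23.5 and 23.9 CPM (log2 ratio 0.02), and *Nr1d2* was slightly higher in W (64.7 and 73.3 CPM, log2 ratio 0.18). The median over the 10 genes was -0.53, beside -0.15 over all genes tested.

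Cluster 10 gave a like picture, with none of the 10 genes past 2-fold, where 6.63% of 12441 genes were lower by that much and 4.97% higher. *Dbp*, at 346 CPM in UW and 296 CPM in W, had its highest level of all clusters there in both libraries. *Per3* (67.6 and 35.7 CPM, log2 ratio -0.92) and *Hlf* (199 and 107 CPM, log2 ratio -0.89) had the lowest ratios. *Per1* was the gene on which clusters 0 and 10 differed in sign, at -0.67 and 0.16, and in cluster 10 its interval, -0.06 to 0.38, included 0.

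Set side by side, the log2 ratio of *Dbp* was 1.19 lower in the epithelium than in cluster 0, with the difference given as -1.19 (interval -1.26 to -1.13). That of *Hlf* differed by -1.18, of *Ciart* by -0.91, of *Tef* by -0.68 and of *Nr1d2* by -0.61. That of *Per3* differed least, by -0.26 (interval -0.39 to -0.13). *Arntl* differed by 0.82 and *Per1* by 0.71, both in the other direction. Against cluster 10, *Dbp* differed by -1.13, *Ciart* by -1.46 and *Arntl* by 0.65, while the difference of *Per1* turned to -0.12 (interval -0.34 to 0.10), which includes 0. With 1 library per condition, whether epithelium and stroma differ in their response beyond counting error was not tested.

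**Figure D4:**
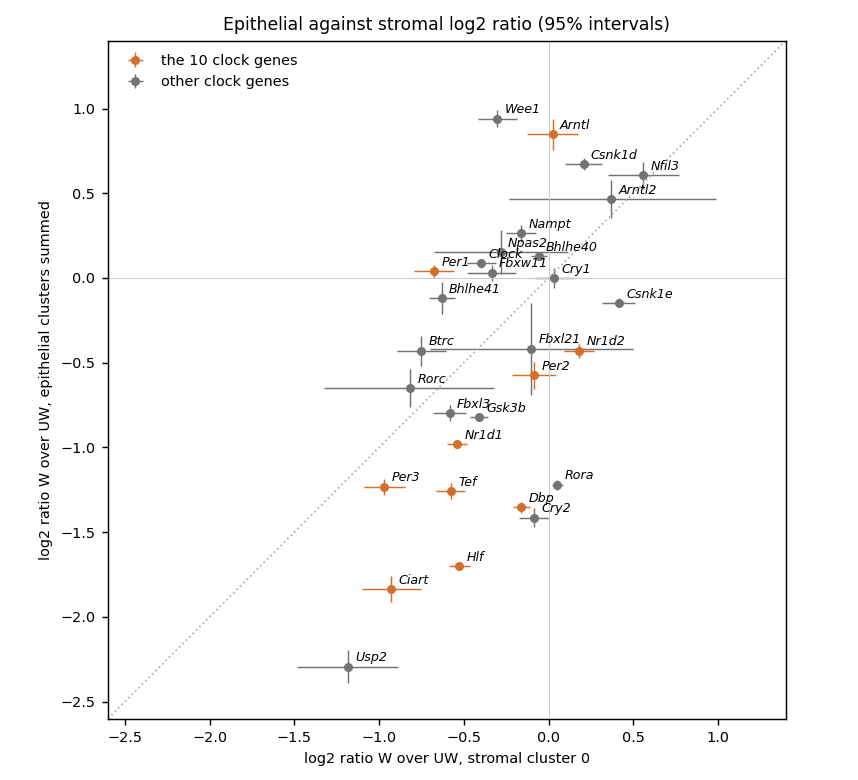
Log2 ratio of W over UW in the summed epithelial clusters (vertical axis) against that in stromal cluster 0 (horizontal axis) for the 10 genes (orange) and 20 other clock genes (grey), with 95% intervals of the counts and the line of equal ratios dotted. *Dbp*, *Cry2* and *Rora* lie far below the line with stromal ratios between -0.16 and 0.05, while *Per3* lies close to it.

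The share of cells with at least 1 UMI was computed with every cell thinned to 5000 UMIs, since the cells of the libraries differ in depth. Clock genes run in nearly all cell types, so no cell type can serve as their background. In the epithelium, *Dbp* was found in 37.9% of 13134 UW cells and 16.7% of 8331 W cells (unthinned, 74.9% and 49.0%). *Hlf* was found in 58.1% and 24.9% of the thinned cells (unthinned, 83.8% and 58.1%). *Arntl* was found in 2.39% and 4.68% (10.6% in UW without thinning). Thinned shares of 8 of the 10 genes were lower in W, beside 42.9% of all 16439 genes tested, *Per1* (17.9% and 19.6%) and *Arntl* being the others. In cluster 0, *Dbp* was found in 57.0% and 54.3% of thinned cells. Thinning left out 367 UW and 176 W epithelial cells.

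**Figure D5:**
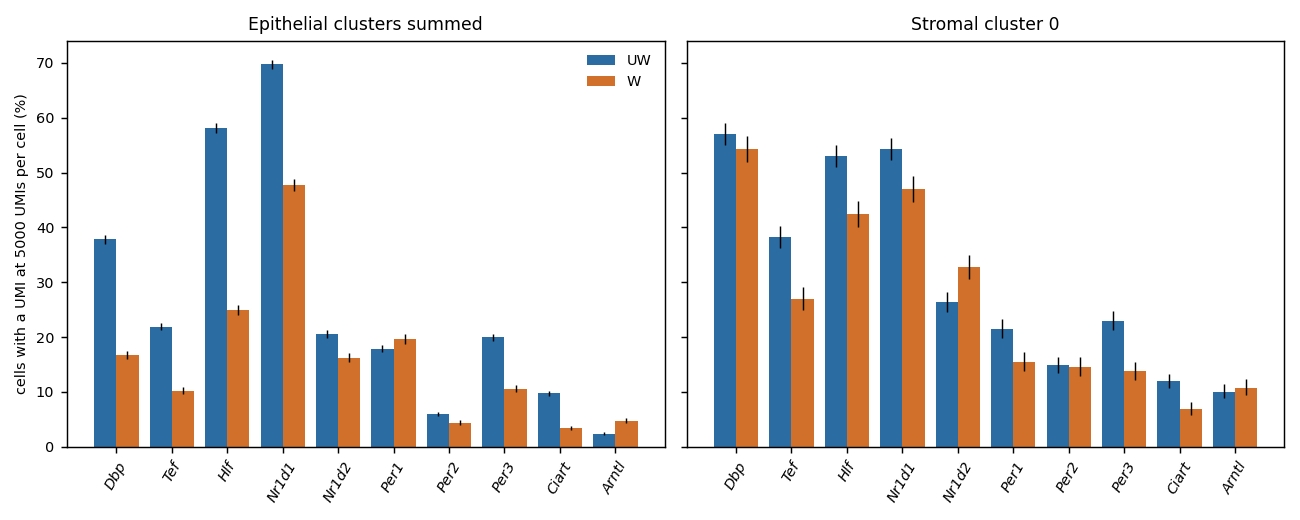
Percent of cells with at least 1 UMI of each gene (vertical axis) after thinning to 5000 UMIs per cell, in the summed epithelial clusters and in stromal cluster 0, for UW (blue) and W (orange), with exact Clopper-Pearson 95% intervals. In the epithelium *Dbp* stands at 37.9% and 16.7% and *Hlf* at 58.1% and 24.9%, while in cluster 0 the bars of *Dbp* stand at 57.0% and 54.3%.

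Immune cells gave levels in the W library alone, because the UW library held at most 7 cells in each of these clusters. *Arntl* was highest there in cluster 16, which carries the T cell markers *Cd3d* and *Cd3g*, at 40.4 CPM (interval 29.1 to 54.6, 42 counts), above its 23.9 CPM in cluster 0. Among the immune clusters it was lowest in cluster 13, led by *Ccl3* and *Stfa2l1*, at 2.72 CPM. *Nr1d1* ranged from 31.4 CPM in cluster 15, which carries the monocyte markers *Lyz2* and *Fcgr1*, to 93.3 CPM in cluster 16. *Per3* stood between 2.21 and 11.1 CPM in these 4 clusters, on at most 41 counts. *Dbp* lay between 25.0 CPM in cluster 14 and 35.6 CPM in cluster 16, with overlapping intervals, close to its level in most epithelial clusters of W. *Hlf* differed more, from 4.43 CPM in cluster 15 to 84.7 CPM in cluster 16. *Per1* lay between 44.2 and 67.4 CPM, and *Ciart* between 7.33 CPM in cluster 14 and 21.2 CPM in cluster 13. *Tef* and *Nr1d2* were also highest in cluster 16, at 28.9 and 49.1 CPM, while *Per2* stood between 5.90 and 9.26 CPM on at most 33 counts. *Arntl*, *Hlf*, *Tef*, *Nr1d1*, *Nr1d2*, *Per1* and *Dbp* thus had their highest immune level in the cluster with T cell markers, although the intervals of *Dbp*, *Tef*, *Nr1d1* and *Per1* there overlapped that of the next cluster.

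Other genes of the clock were read from lists of 21 genes. In the epithelium, 3 of the 20 with enough counts were at least 2-fold lower in W and 0 higher, beside 8.77% and 21.8% of all genes, and their median log2 ratio was -0.06. The 3 were *Usp2*, a ubiquitin protease under clock control (20.3 and 4.13 CPM, log2 ratio -2.29), *Cry2*, a partner of the PER proteins (34.6 and 12.98 CPM, log2 ratio -1.41), and *Rora*, the activator that competes with REV-ERB (125 and 53.5 CPM, log2 ratio -1.22). *Cry2* was at least 2-fold lower in 10 of 10 epithelial clusters and *Rora* in 8. In cluster 0 *Cry2* stood at 74.4 and 70.1 CPM (log2 ratio -0.09) and *Rora* at 448 and 464 CPM (log2 ratio 0.05).

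In the summed epithelium the remaining clock genes were closer to level. *Clock*, the partner of BMAL1, stood at 76.3 CPM in UW epithelium and 81.0 CPM in W (log2 ratio 0.09), and *Cry1* at 16.6 CPM in both. *Wee1*, a cell cycle kinase with a clock-driven rhythm, stood at 16.6 and 31.9 CPM (log2 ratio 0.94). *Nfil3*, which represses through the D-box, stood at 7.24 and 11.01 CPM (log2 ratio 0.61). Within clusters, however, *Nfil3* was below 0 in 7 of 10 epithelial clusters, with a median log2 ratio of -0.18. *Nfil3* was at least 2-fold lower in W in 2 of the 10 clusters and at least 2-fold higher in 2. In cluster 0, 1 of 20 was at least 2-fold lower, *Usp2*, and 0 higher, beside 9.67% and 7.34% of all genes. In cluster 10, *Rorb* was lower and *Nfil3* higher by that much, out of 21, beside 6.63% and 4.97% of all genes.

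Other measures also differed between the libraries. In the epithelium, 5 of 8 immediate early genes, which cells induce within minutes of a stimulus or of dissociation, had a log2 ratio below 0 in the sum. By cluster, *Jun* was below 0 in 4 of 10 epithelial clusters and *Nr4a1* in 3. *Fos* (1711 and 839 CPM) and *Egr1* (635 and 189 CPM) were the 2 of 8 that were past 2-fold lower in W, beside 8.77% of all genes. In cluster 0, where the 10 clock genes differed less, 5 of 8 were past 2-fold lower, beside 9.67% of all genes, *Fos* with 3377 and 597 CPM. The 3 heat shock genes of dissociation were all lower in W epithelium, *Dnajb1* at 571 and 279 CPM, *Hspa1b* at 700.1 and 361 CPM and *Hspa1a* at 344 and 211 CPM, and 1 of 3 was past 2-fold, beside 8.77% of all genes. Each had a log2 ratio below 0 in 10 of 10 epithelial clusters. All 3 were past 2-fold in clusters 8 and 11 (medians -1.28 and -1.42, beside 9.58% and 9.33% of all genes), where 7 of the 10 clock genes were lower by that much. None was in cluster 7 (median -0.40), where 2 clock genes were. In cluster 9, where 9 of the 10 clock genes were, it was 1 of 3 (median -0.82, beside 9.76% of all genes). In clusters 2 and 4, with 5 of 10 clock genes each, it was none (medians -0.86 and -0.52, beside 13.1% and 13.5%). The other clusters had 1 of 3 (clusters 1, 5 and 6) or 2 of 3 (cluster 3). In cluster 0 none of the 3 was past 2-fold (median -0.56). Of 7 glucocorticoid-responsive genes, 5 had a log2 ratio below 0 in the summed epithelium and 1 was past 2-fold, *Zbtb16* (4.45 and 0.255 CPM), beside 8.77% of all genes lower by that much. By cluster, *Tsc22d3* was below 0 in 9 of 10 epithelial clusters and *Klf9* in 8, while *Sgk1*, *Dusp1* and *Errfi1* had intervals above 0 in 8, 7 and 8 of 10. In cluster 0, 1 of the 7 was past 2-fold lower, *Zbtb16* (13.7 and 5.21 CPM), and 1 higher, *Fkbp5* (10.2 and 31.8 CPM), beside 9.67% and 7.34% of all genes.

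Sums of marker genes differed as well, and mostly within the clusters. In the summed epithelium the 4 superficial markers went from 20961 CPM in UW to 5459 CPM in W and were lower in 10 of 10 clusters. The 3 limbal markers went from 128 to 1988 CPM and were higher in 10 of 10, though least so in limbal cluster 9 (2984 and 4207 CPM), and in stromal cluster 0 they went from 1788 to 9783 CPM. The 4 conjunctival markers went from 3304 to 5404 CPM and were also higher in 10 of 10 clusters, as in cluster 1 (356 and 1521 CPM) and cluster 7 (4021 and 12280 CPM). The 4 basal markers went from 392 to 547 CPM in the sum, and were higher in W in 5 of 10 clusters. They were lower in cluster 9 (1349 and 825 CPM), cluster 11 (1512 and 968 CPM) and cluster 8 (1144 and 752 CPM), where most clock genes were lower. They were lower by less in cluster 3 (1331 and 1293 CPM) and cluster 5 (260 and 250 CPM). They were higher in cluster 7 (28.6 and 52.9 CPM), where *Dbp* was higher. They were also higher in clusters 1 (345 and 405 CPM), 2 (105 and 136 CPM), 4 (137 and 222 CPM) and 6 (63.3 and 93.0 CPM), where *Dbp* was lower. The 6 cycling markers went from 109 to 317 CPM and were higher in 9 of 10 clusters, being lower in cycling cluster 8 (2056 and 1101 CPM). The 4 neutrophil markers went from 22.9 CPM, with *Retnlg* at 0, to 697 CPM and reached at least 352 CPM in each epithelial cluster of W. The 3 markers of any immune cell went from 1.81 to 19.9 CPM and the 5 T cell markers from 1.08, with *Nkg7* at 0, to 3.34 CPM, both higher in 10 of 10 clusters. The 5 monocyte markers went from 105.9 to 72.2 CPM in the sum but were higher in 8 of 10 clusters, the exceptions being cluster 7 (532 and 341 CPM) and cluster 5 (78.0 and 66.4 CPM). The 7 epithelial markers, all found in cluster 0, where they are foreign, summed there to 6768 CPM in UW and 5183 CPM in W. The part of these stress-responsive genes and markers in the clock gene values was not tested. Without the cycling clusters 8 and 11, *Dbp* had an epithelial log2 ratio of -1.19, and 5 of the 10 clock genes were past 2-fold. The share of all genes past 2-fold in that sum was not computed.

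Genes whose levels were most like that of *Dbp* were sought by Pearson r of log2(CPM + 1) over 24 points, the 12 clusters in each library, among 8680 genes with at least 20 CPM at some point. They were *Smurf2* (r = 0.96), *Aldh6a1*, *Dync2h1*, *Fam129a* and *4932438A13Rik* (r = 0.95). Those most like *Arntl* were *Copg1* (r = 0.94), *Rcan3*, *Atf5*, *P2rx4* and *Ndn* (r = 0.92). The points share libraries and clusters, and the 10 names are unstable, as 1 of them returned among the nearest genes of the UW points alone and 1 among those of the W points alone. Among the 10 genes themselves, *Dbp* was most like *Tef* (r = 0.97) and *Nr1d2* (r = 0.94) and least like *Nr1d1* (r = 0.32).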

How the data were processed

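Single-cell RNA-seq of 2 corneal libraries was analysed. The counts deposited by the authors are raw UMI counts, 1 row for each cell, from Cell Ranger 3.1.0, with a cluster number for each cell from Seurat. The authors state that they filtered cells on genes and mitochondrial UMIs and discarded doublets and cells that showed a dissociation signature. The table holds fewer cells than their text gives, and 469 of its cells are still named doublets in at least 1 of its columns. These were kept here and left out in an alternative. The build is mm9 in the submitters' processing notes and mm10 in the methods, and the kit also differs between them. Summed counts of all 28867 cells equalled the deposited UMI counts. The libraries shared 52 cell barcodes (104 cells).

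Counts were summed per cluster and library, scaled to CPM with exact Poisson 95% intervals, and compared as log2 ratios with exact binomial intervals. A gene was called past 2-fold (log2 of 1) with at least 20 counts over both libraries. Shares used exact Clopper-Pearson intervals. Epithelial clusters were named from marker lists. The 10 genes, the lists and the rule for the text's names (all members, listed clock, stress and marker genes, and the 5 genes most like *Dbp* and *Arntl*) were chosen with earlier results of these data known. Alternatives were other scalings (TMM in edgeR 4.0.16, median-of-ratios in DESeq2 1.42.0), cell filters, thinning, cell weights and cluster sums. Python 3.11.15, numpy 2.4.6, pandas 2.3.3, scipy 1.17.1 and R 4.3.3 were used. The ratio, its interval and the calls were tested on simulated data, pooled over repeated draws because 1 draw held too few changed genes to judge the intervals.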

Additional observations from a re-analysis of the deposited data

Results flagged for a closer look

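For 2 of the 10 genes the sums of the epithelial clusters and of stromal cluster 0 moved opposite ways between the libraries. *Nr1d2* had a log2 ratio of W over UW of -0.43 in the epithelium and 0.18 in cluster 0. *Per1* had 0.04 in the epithelium and -0.67 in cluster 0. With 1 library on each side the difference was not tested, and the epithelial sign of *Per1* held in 8 of 13 alternative settings.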

How the results depend on the processing

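With a 1.5-fold limit in place of 2-fold, 3 genes in cluster 0 (*Per1*, *Per3*, *Ciart*) and 2 in cluster 10 (*Hlf*, *Per3*) were past it, all lower, in place of 0 in each, beside 22.3% and 17.3% of all genes lower by that much. Without the minimum of 20 counts, 7545 genes in place of 5029 were past 2-fold in the epithelium, 5558 in place of 2423 in cluster 0 and 4976 in place of 1443 in cluster 10. Of the 10 genes named as most like *Dbp* and *Arntl*, 1 returned in UW alone and 1 in W alone. The 5 epithelial genes past 2-fold became 5 to 7. Among cells with 10000 to 30000 UMIs, however, they were 4 lower and 1 higher, since *Per3* (-0.99) was lost and *Arntl* (1.02) gained. The 56 pairs became 47 to 76 over the alternatives run. Of these alternatives, leaving out cluster 5, cluster 7 or cells with shared barcodes was chosen after seeing the data. At the 1.5-fold limit, 17.7% of all epithelial genes were lower and 34.4% higher. For the other alternatives, and for the pairs under any of them, no such share was computed. Of 310 single gene values under alternatives, 184 stayed inside the counting interval and 0 values past 2-fold turned their sign. *Per1* in the epithelium ranged from -0.19 to 0.39, *Nr1d1* from -1.22 to -0.52, and *Dbp* in cluster 0 from -0.16 to 0.01, and *Per2* in clusters 0 and 10 and *Arntl* in cluster 0 also crossed 0. The cause was not tested. No paired analysis was possible because each condition has 1 library and the labels carry no replicate numbers. Levels of a few CPM, as for *Arntl* and *Ciart* in cluster 7, are limited by depth.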
